A study of Homo sapiens with 8 samples.

Results

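The genes of MHC class II, its invariant chain and its master regulator were followed in RNA-seq of 2D human intestinal epithelial cells (hIECs). They were the 10 protein-coding genes CIITA, CD74, HLA-DRA, HLA-DRB1, HLA-DPA1, HLA-DPB1, HLA-DQA1, HLA-DQB1, HLA-DMA and HLA-DMB, chosen by name from the 60558 genes measured (19957 of them protein-coding). All hIECs came from the human embryonic stem cell line H9, which is an established line, and were cultured without immune cells. The 4 groups, each with 2 libraries, were normal and inflamed hIECs, each without and with PM10 (coarse airborne particulate matter). The cytokines of the inflamed groups were IFNγ and TNFα, each at 50 ng/ml over 10 days. The groups with PM10 carried it at 100 μg/ml during the final 7 of these days, whereas the sample records give 10 days for every group. Nothing states that the libraries of a group came from separate cultures, so the spread between them, and every p-value here, may be technical only.

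MHC class II molecules are pairs of an α and a β chain that hold peptides from engulfed or endosomal protein and show them to CD4+ T cells. The invariant chain, encoded by CD74, escorts new α and β chains to the endosome and keeps their groove closed, and HLA-DM then exchanges its remnant for a peptide. CIITA switches these genes on without binding DNA itself, by joining RFX, CREB and NF-Y proteins on the X and Y boxes of their promoters. Dendritic cells, macrophages and B cells express class II constitutively, and IFNγ induces it in many other cells, the gut epithelium among them.

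The values were FPKM (sequenced fragments scaled by transcript length and library size), so levels can be set side by side between genes. The lowest value above 0 lay between 0.164 and 0.228 FPKM in the 8 libraries and was read as a mean depth of 1 over a transcript. On that reading 1 FPKM was a mean depth of 4.38 to 6.11, and a gene listed at 0 lay under a depth of 1. Of 16 intestinal epithelial markers, 9 were listed at 0 in all 8 libraries, among them CDX2, VIL1, LYZ and MUC2, while KRT8 stood at 185 to 383 FPKM. All 10 mesenchymal markers were above 0, led by COL3A1 at 466 to 1035 FPKM and VIM at 718 to 973 FPKM. The transcripts thus went partly against the label of an intestinal epithelium. In bulk RNA, fewer cells that express a gene and less of its RNA per cell cannot be told apart.

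Cytokines changed the class II genes unequally. CD74 rose from single-digit levels to the most abundant of the 10 transcripts, HLA-DRA rose from near the detection limit, HLA-DRB1, HLA-DPA1 and HLA-DQA1 rose by smaller amounts, and HLA-DQB1 and HLA-DMB fell. With limma on log2(FPKM + 1), 5 of the 9 genes in the fit were called higher in inflamed than in normal hIECs, beside 25.9% of all 14206 genes tested. The 2 called lower stood beside 30.3% of all genes tested. The median log2 difference of the 9 genes was 0.54, against -0.03 over all genes tested. CIITA missed the minimum of 1 FPKM in 2 libraries and was not in the fit, and HLA-DRA and HLA-DPA1 reached it only in the libraries with cytokines, so these counts and medians cannot stand for the 10 genes.

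**Figure D1:**
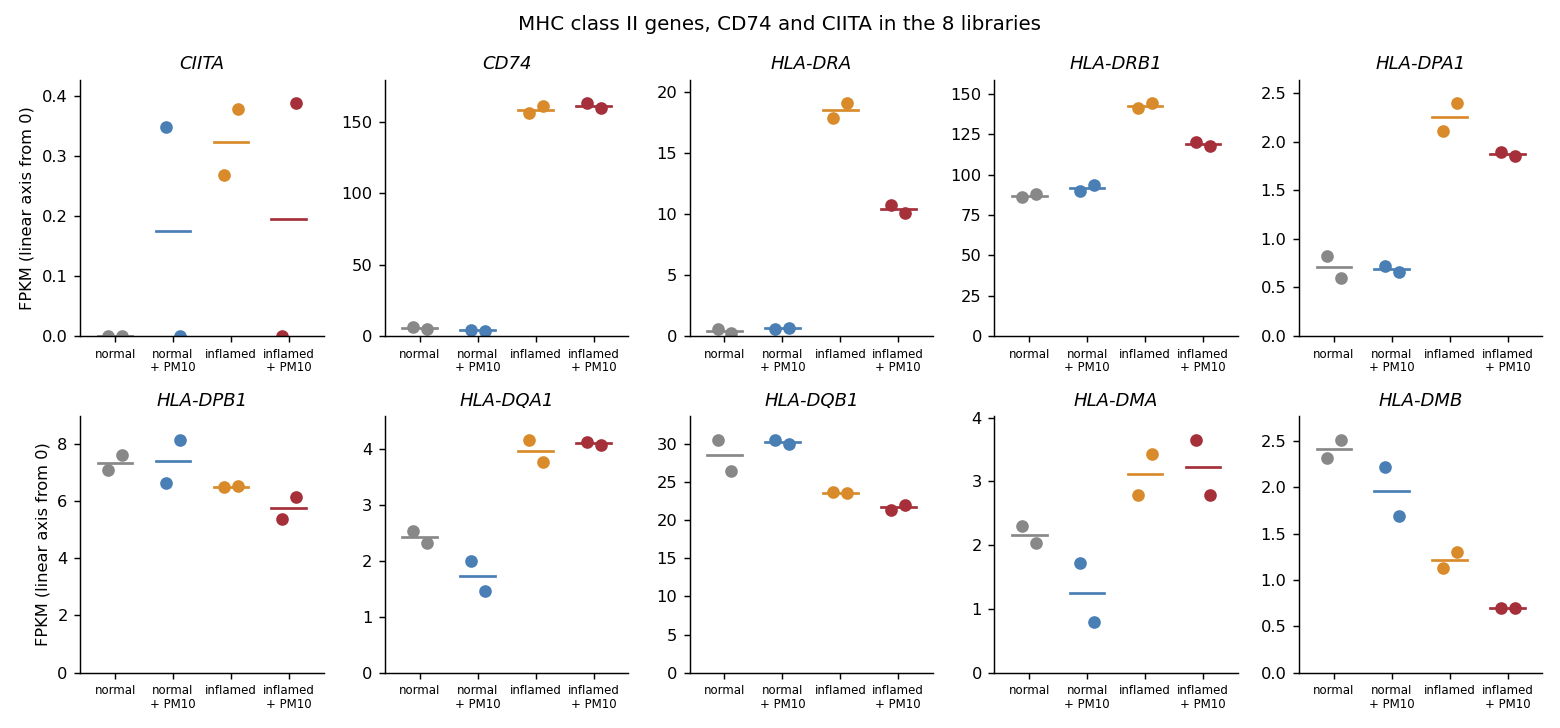
FPKM of the 10 genes in the 8 libraries, with a separate linear axis from 0 for each gene; each point is a library and each line the mean of the 2 libraries of a group. CD74 and HLA-DRA separate the groups with cytokines from those without, HLA-DQB1 and HLA-DMB lie lower with cytokines, and CIITA is at 0 in 4 of the 8 libraries.

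CIITA (ENSG00000179583, chr16:10866222-10943021, plus strand, GRCh38), the coactivator, was hardly detected. It was listed at 0 in both normal libraries, at 0.349 and 0 FPKM in normal hIECs with PM10, at 0.268 and 0.378 FPKM in inflamed hIECs, and at 0 and 0.388 FPKM in inflamed hIECs with PM10. Both inflamed libraries lay above both normal ones, whereas in the PM10 groups 1 library of each was at 0 and the ranges overlapped. The values above 0 stood for a mean depth of 1.17 to 1.83, and the 4 libraries with cytokines did not differ detectably from the 4 without at this depth (exact two-sided permutation test, p = 0.257, where the smallest possible p is 0.0286). CIITA was above 0 in 3 of the 4 libraries with cytokines and in 1 of the 4 without. With every gene above 0 in at least 1 library in the fit, its log2 difference between inflamed and normal hIECs was 0.40 ± 0.19 (SE, limma, adjusted p = 0.141). Of the exon bases of CIITA, 20.4% are shared with other annotated genes, among them DEXI on the opposite strand, which stood at 13.4 to 21.3 FPKM and could not be separated there in libraries without strand information.

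CD74 (chr5:150401637-150412969, minus strand), the invariant chain, gave the largest cytokine difference of the 9 fitted genes on log2(FPKM + 1). With a pseudocount of 0.1, HLA-DRA came before it for cytokines without PM10 (log2 differences of 5.30 and 4.76), as it did by the ratio of mean FPKM. Its levels were 6.52 and 5.07 FPKM in normal hIECs and 4.12 and 3.78 FPKM in normal hIECs with PM10. They were 156 and 161 FPKM in inflamed hIECs and 163 and 160 FPKM in inflamed hIECs with PM10. The 4 libraries with cytokines lay far above the 4 without, and the ranges of the 2 cytokine groups overlapped. The mean FPKM was 27.4 times as high in inflamed as in normal hIECs, a log2 difference of 4.56 ± 0.10 (SE, n = 2 per group, adjusted p = 5.26e-08). With PM10 in both groups the mean FPKM was 40.9 times as high, a log2 difference of 5.04 ± 0.10 (adjusted p = 2.50e-08).

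HLA-DRA (chr6:32439878-32445046, plus strand) encodes the α chain that pairs with every HLA-DR β chain. It stood at 0.525 and 0.256 FPKM in normal hIECs, at 0.576 and 0.644 FPKM in normal hIECs with PM10, at 17.9 and 19.1 FPKM in inflamed hIECs and at 10.7 and 10.1 FPKM in inflamed hIECs with PM10. No library with cytokines overlapped one without, and the inflamed libraries with PM10 lay between the normal and the inflamed ones. Its log2 difference was 3.82 ± 0.10 for cytokines without PM10 (adjusted p = 1.73e-07) and 2.83 ± 0.10 with PM10 (adjusted p = 5.31e-07). The log2(FPKM + 1) scale understates the change of a gene this low, and the ratios of the mean FPKM were 47.4 and 17.1.

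HLA-DRB1 (chr6:32577902-32589848, minus strand), the main HLA-DR β chain gene, was the most abundant of the 10 without cytokines. It stood at 86.0 and 87.8 FPKM in normal hIECs, at 89.9 and 93.3 FPKM with PM10, at 141 and 144 FPKM in inflamed hIECs, and at 120 and 118 FPKM in inflamed hIECs with PM10. The 4 groups did not overlap. Its log2 difference was 0.71 ± 0.04 for cytokines without PM10 (adjusted p = 1.13e-05) and 0.38 ± 0.04 with PM10 (adjusted p = 2.05e-04). HLA-DRB5, a second DR β chain gene that was not among the 10, rose from 6.78 and 6.38 FPKM in normal hIECs to 20.9 FPKM in both inflamed libraries, a log2 difference of 1.53 ± 0.05 (adjusted p = 7.21e-07). Its ratio to HLA-DRB1 was 0.0726 to 0.0808 in the libraries without cytokines and 0.127 to 0.148 in those with them. The reference transcripts of HLA-DRB1 and HLA-DRB5 are 92.6% identical but share no stretch of 100 bases, the read length, and neither the division of reads between these polymorphic genes nor the fit of the alleles of H9 to the reference was tested, so the levels of HLA-DRB1 and their rank carry this limit.

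The HLA-DP and HLA-DQ pairs each had an α chain gene that rose and a β chain gene that did not. HLA-DPA1 (chr6:33064569-33080775, minus strand) stood at 0.818 and 0.600 FPKM in normal hIECs and at 2.11 and 2.40 FPKM in inflamed hIECs. Its partner HLA-DPB1 (chr6:33075990-33089696, plus strand) stood at 7.09 and 7.60 FPKM in normal and at 6.48 and 6.52 FPKM in inflamed hIECs. The ranges were separate for both genes, but only HLA-DPA1 passed the test, with a log2 difference of 0.93 ± 0.10 (adjusted p = 1.69e-04), whereas HLA-DPB1 had -0.15 ± 0.10 (adjusted p = 0.225). By mean FPKM HLA-DPA1 was 3.18 times as high in inflamed hIECs.

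HLA-DQA1 (chr6:32628179-32647062, plus strand) stood at 2.53 and 2.32 FPKM in normal and at 4.16 and 3.77 FPKM in inflamed hIECs, a log2 difference of 0.54 ± 0.11 (adjusted p = 0.00397). HLA-DQB1 (chr6:32659467-32668383, minus strand) was the second most abundant class II gene without cytokines and stood at 30.6 and 26.5 FPKM in normal and at 23.7 and 23.6 FPKM in inflamed hIECs. It fell by 0.26 on the log2 scale (SE 0.07, adjusted p = 0.0152). The inflamed libraries lay below both normal ones. This call was lost when only the groups compared were fitted (adjusted p = 0.0547) and when either inflamed library was left out (adjusted p = 0.0628 without the first, 0.0637 without the second). Of the exon bases of HLA-DQB1, 11.03% are shared with its antisense gene HLA-DQB1-AS1, which stood at 0.817 to 2.43 FPKM.

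HLA-DMA and HLA-DMB encode the 2 chains of the peptide exchange factor HLA-DM, and they moved apart. HLA-DMA (chr6:32948613-32969094, minus strand) stood at 2.30 and 2.03 FPKM in normal hIECs, at 1.71 and 0.794 FPKM with PM10, at 2.78 and 3.43 FPKM in inflamed hIECs, and at 3.65 and 2.78 FPKM in inflamed hIECs with PM10. HLA-DMB (chr6:32934629-32941028, minus strand) stood at 2.31 and 2.51, 2.22 and 1.69, 1.13 and 1.30, and 0.696 and 0.693 FPKM in the same order. All 4 libraries with cytokines were above the 4 without for HLA-DMA and below them for HLA-DMB. HLA-DMB fell by 0.63 on the log2 scale in inflamed against normal hIECs (SE 0.11, adjusted p = 0.00199), while HLA-DMA had 0.37 ± 0.20 (adjusted p = 0.149). The scale of log2(FPKM + 1) understates both changes, and the ratios of mean FPKM were 0.502 for HLA-DMB and 1.44 for HLA-DMA. A readthrough gene shares 32.5% of the exon bases of HLA-DMB and 13.6% of those of HLA-DMA, and it was listed at 0 in all 8 libraries.

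With PM10 in both groups, 6 of the 9 genes were higher with cytokines, where 25.8% of all genes tested were called, and 3 were lower, where 39.6% were called. The median of the 9 was 0.77, against -0.11 over all genes tested. HLA-DRA and HLA-DPA1 reached the minimum only with cytokines here too, so these counts and this median cannot stand for the 10 genes. HLA-DMA joined the genes that rose, with a log2 difference of 0.93 ± 0.20 (adjusted p = 0.00465), and HLA-DQA1 (0.91 ± 0.11) and HLA-DPA1 (0.77 ± 0.10) were called again. HLA-DMB fell by 0.80 and HLA-DQB1 by 0.46 on the log2 scale. By mean FPKM, HLA-DMB stood at 0.355 and HLA-DMA at 2.57 times the level without cytokines. HLA-DPB1 fell by 0.31 on the log2 scale (adjusted p = 0.0280), a call lost without 1 of the normal libraries with PM10 (adjusted p = 0.171 without the second), without the first inflamed library with PM10 (adjusted p = 0.155), when only the groups compared were fitted, and under both other scalings between libraries (adjusted p = 0.0653 to 0.0676 for these 3).

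**Figure D2:**
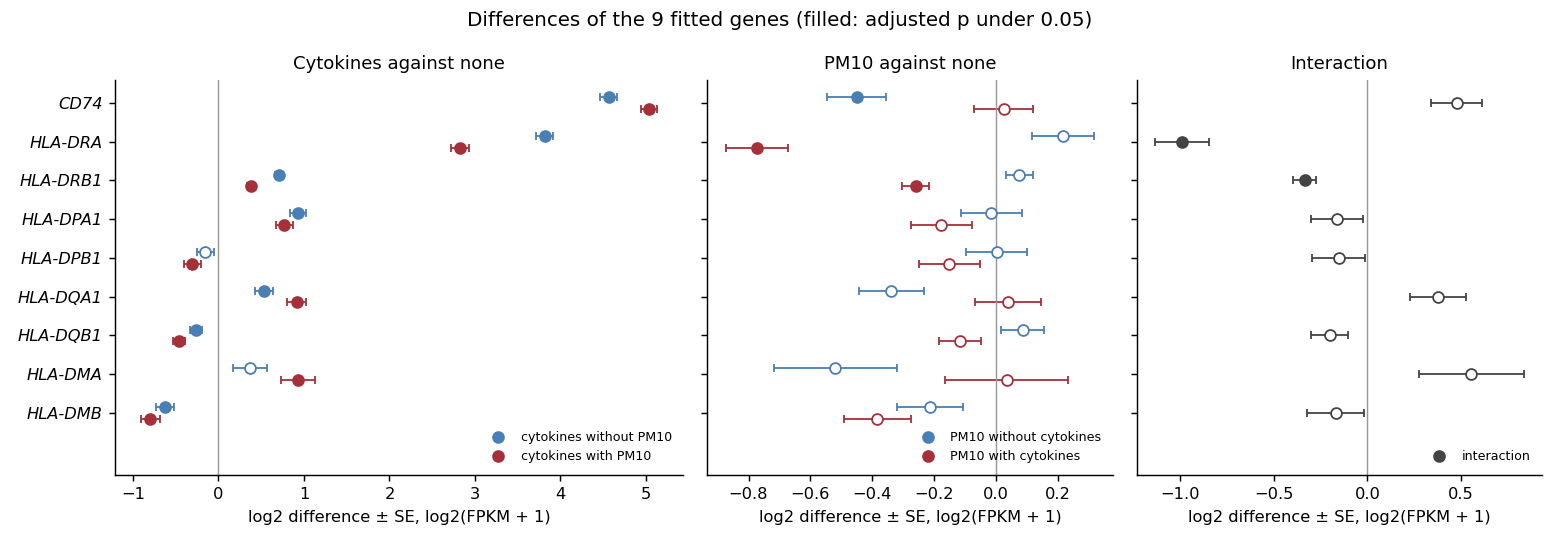
Log2 differences of the 9 fitted genes on the log2(FPKM + 1) scale, with the SE from limma as bars; filled points have an adjusted p under 0.05. Cytokine differences reach from -0.80 for HLA-DMB to 5.04 for CD74, and among the PM10 differences only CD74 without cytokines and HLA-DRA and HLA-DRB1 with them are filled.

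The promoters of 8 of the 10 genes were in the RefSeq table of windows (GRCh38.p14, 250 bases before to 50 after the start site), and CIITA and HLA-DRA were not among them. Motifs were searched on both strands by their letters. The Y box letters CTGATTGG, the NF-Y site, stood in the windows of 3 of the 8 genes and in 3.97% of all 35116 windows. The 3 genes, with HLA-DRB5, are shown because they share this site while HLA-DRB1 and HLA-DRB5 rose with cytokines, HLA-DQB1 fell, and HLA-DMA passed the test only with PM10. Each stretch is given on the strand of its gene with the Y box in capitals.
HLA-DRB1 (chr6:32589878-32589977): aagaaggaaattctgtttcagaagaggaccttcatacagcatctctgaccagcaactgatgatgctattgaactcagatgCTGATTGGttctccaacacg
HLA-DRB5 (chr6:32530361-32530460): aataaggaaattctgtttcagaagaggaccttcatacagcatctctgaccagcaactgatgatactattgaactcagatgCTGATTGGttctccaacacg
HLA-DQB1 (chr6:32666729-32666828): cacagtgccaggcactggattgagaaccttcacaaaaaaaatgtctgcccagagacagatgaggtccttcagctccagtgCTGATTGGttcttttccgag
HLA-DMA (chr6:32953160-32953259): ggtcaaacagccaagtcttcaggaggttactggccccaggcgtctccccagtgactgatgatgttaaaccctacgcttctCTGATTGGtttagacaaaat

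The capitals begin 49 bases before the start site in HLA-DRB1, 93 in HLA-DRB5, 91 in HLA-DQB1 and 82 in HLA-DMA. The shorter letters GATTGG, which lie within CTGATTGG, stood in 5 of the 8 genes and in 15.1% of all windows. The X box letters CCTAGCAAC and the E box CACGTG stood in none of the 8 and in 0.638% and 7.26% of all windows. A looser X box, CCNNGNNAC, stood in 5 of the 8 and in 50.1% of all windows. The stretch of HLA-DRB1 shown above holds CCAGCAAC, the X box letters without the T, which neither form matches. A search by fixed letters can miss a box, so a missing match does not show that the box is absent. The interferon-response letters GAAANNGAA stood in 4 of the 8 (CD74, HLA-DRB1, HLA-DPA1 and HLA-DMB) and in 8.11% of all windows, and the interferon-γ activated site TTCNNNGAA in HLA-DQA1 alone and in 7.66%. HLA-DMB, which fell, held the interferon-response letters as CD74 did.

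CD74, which had the highest level of the 10 genes with cytokines, held neither form of the Y box searched. Its window does hold CCAAT, the other-strand reading of the ATTGG that ends both forms. The search thus does not show that an NF-Y site is absent from CD74. The window is shown with the looser X box in capitals, which begins 84 bases before the start site.
CD74 (chr5:150412861-150413160): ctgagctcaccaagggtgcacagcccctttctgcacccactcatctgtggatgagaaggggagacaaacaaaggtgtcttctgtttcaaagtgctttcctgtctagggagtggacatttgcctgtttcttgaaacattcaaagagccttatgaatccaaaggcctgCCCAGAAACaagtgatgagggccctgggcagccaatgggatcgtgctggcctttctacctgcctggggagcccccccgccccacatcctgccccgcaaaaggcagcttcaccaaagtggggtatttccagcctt

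The order of levels differed between the groups. In normal hIECs the mean levels ran from HLA-DRB1 (86.9 ± 1.27 FPKM, SD, n = 2) through HLA-DQB1 (28.6 ± 2.89), HLA-DPB1 (7.35 ± 0.36) and CD74 (5.79 ± 1.02) to HLA-DQA1, HLA-DMB and HLA-DMA (2.43, 2.41 and 2.17), of which HLA-DQA1 and HLA-DMB overlapped. HLA-DPA1, HLA-DRA and CIITA closed the order. In inflamed hIECs CD74 came first (159 ± 3.59 FPKM), then HLA-DRB1 (143 ± 2.27), HLA-DQB1 (23.7 ± 0.04) and HLA-DRA (18.5 ± 0.84), and no neighbours overlapped. Summed over the 10 genes, levels were 135 to 141 FPKM in the 4 libraries without cytokines, 356 and 366 FPKM in inflamed hIECs, and 332 and 326 FPKM in inflamed hIECs with PM10. These sums were 0.0288% to 0.0324% of all FPKM without cytokines and 0.0808% to 0.0875% with them.

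The ratio of β to α chain transcripts was lower with cytokines in all 4 pairs. HLA-DRB1 was 164 and 342 times as high as HLA-DRA in the normal libraries, where HLA-DRA was close to the detection limit and the mapping of HLA-DRB1 reads was not tested, and 7.88 and 7.56 times as high in the inflamed ones. The ratio of HLA-DPB1 to HLA-DPA1 went from 8.67 and 12.7 to 3.08 and 2.72. That of HLA-DQB1 to HLA-DQA1 went from 12.1 and 11.4 to 5.69 and 6.27. HLA-DMB and HLA-DMA were at near equal levels in normal hIECs (ratios 1.01 and 1.24), and with cytokines HLA-DMB was the lower (0.406 and 0.377). In each pair every library with cytokines had a lower ratio than every library without. CD74, the common chaperone, was 5.87 to 19.8 times as high as HLA-DRA without cytokines and 8.44 to 15.8 times as high with them, and these ranges overlapped.

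**Figure D3:**
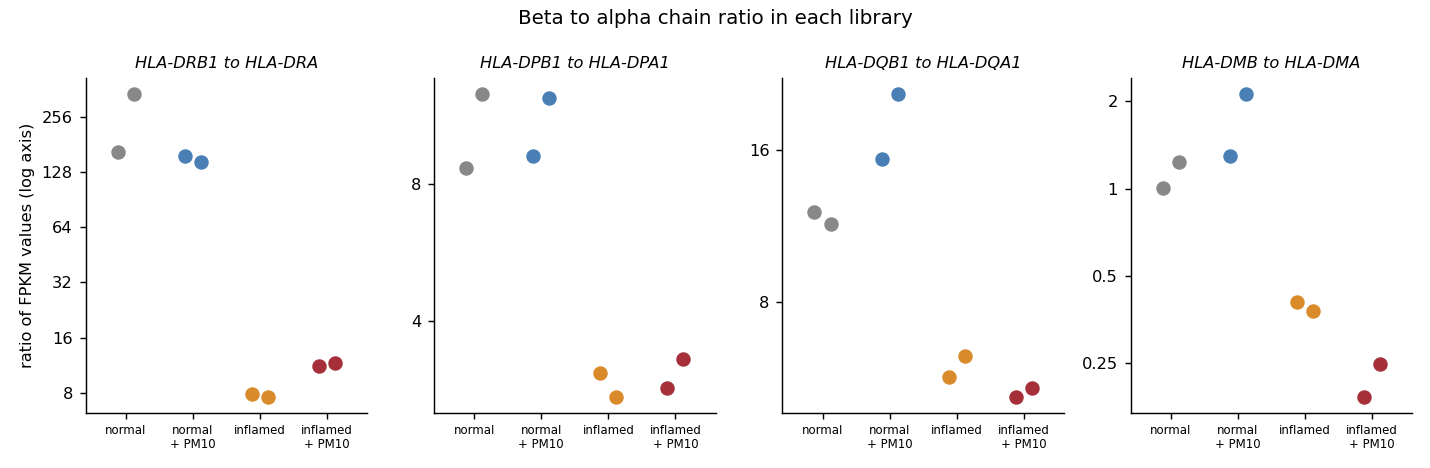
Ratio of β to α chain FPKM for the 4 class II pairs in each library, on a log axis; each point is a library. The 4 libraries with cytokines lie below the 4 without in every pair, from 7.56 to 11.7 against 145 to 342 for HLA-DRB1 to HLA-DRA.

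The PM10 comparisons gave few calls, among these genes as among all genes tested. In normal hIECs, 1 of the 9 fitted genes was called lower with PM10 and none higher, where 3.72% of all genes tested were called lower and 5.51% higher. At an unadjusted p under 0.05, HLA-DQA1 (log2 difference -0.34 ± 0.11, adjusted p = 0.0878) and HLA-DMA (-0.52 ± 0.20, adjusted p = 0.136) were lower too, and no gene was higher. CD74 fell by 0.45 on the log2 scale (SE 0.10, adjusted p = 0.0327), and its 2 libraries with PM10 lay below the normal ones. This call was lost in 9 of 17 alternative fits, with adjusted p-values from 0.0505 to 0.178, among them all 6 that left out a library of a group other than normal hIECs.

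In inflamed hIECs, PM10 lowered HLA-DRA and HLA-DRB1. These were the 2 of the 9 genes called lower, where 9.02% of all genes tested were, and none was called higher, against 6.22%. HLA-DRA fell by 0.77 on the log2 scale (SE 0.10, adjusted p = 0.00379), and its mean FPKM with PM10 was 0.563 times that without. HLA-DRB1 fell by 0.26 (SE 0.04, adjusted p = 0.00991), to 0.835 times its mean. In both genes the 2 libraries with PM10 lay below the 2 without. HLA-DRB5 fell by 0.43 (SE 0.05, adjusted p = 0.00331), from 20.9 FPKM in both libraries to 15.3 and 15.2 FPKM.

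The other class II genes did not pass this test. By mean FPKM, HLA-DMB with PM10 stood at 0.573 times its level without, a change that log2(FPKM + 1) understates at this level. It had a log2 difference of -0.38 ± 0.11 (adjusted p = 0.0535) with separate ranges. It passed in 6 of 16 alternative fits (adjusted p = 0.0311 to 0.0466), namely with a pseudocount of 0.1, with protein-coding genes only, without the variance trend, with only the groups compared, and without either normal library with PM10. CD74 had 0.03 ± 0.10 (adjusted p = 0.882) with overlapping ranges. HLA-DPA1, HLA-DPB1 and HLA-DQB1 were each lower in both libraries with PM10 without passing (log2 differences -0.18, -0.15 and -0.12). HLA-DQA1 and HLA-DMA overlapped between the groups. The call of HLA-DRB1 was lost when any library of these 2 groups was left out (adjusted p = 0.0574 to 0.0754), and that of HLA-DRA with a pseudocount of 0.1 (adjusted p = 0.0616).

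The PM10 difference itself differed between normal and inflamed hIECs for HLA-DRA and HLA-DRB1, where the interaction was called for 6.6% of all genes tested. The interaction was -0.99 ± 0.14 for HLA-DRA (adjusted p = 0.0111) and -0.33 ± 0.06 for HLA-DRB1 (adjusted p = 0.0260). The call of HLA-DRA was lost in 4 of 16 alternative fits (adjusted p = 0.0510 to 0.0572), with a pseudocount of 0.1 and without the second library of normal hIECs with PM10, of inflamed hIECs or of inflamed hIECs with PM10. That of HLA-DRB1 was lost in 8 of 16 (adjusted p = 0.0505 to 0.102), under median centring, without the variance trend and without any 1 of the 6 libraries outside the normal group. In normal hIECs their log2 differences with PM10 were 0.22 ± 0.10 and 0.08 ± 0.04, and neither passed. HLA-DRB5 had an interaction of -0.58 ± 0.08 (adjusted p = 0.00870). CD74 had the opposite sign, 0.48 ± 0.14 (adjusted p = 0.0861), and passed under median centring (adjusted p = 0.0391), quantile normalization (adjusted p = 0.0301) and without the second normal library (adjusted p = 0.00973).

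The calls over all genes depended on the scaling in these comparisons. PM10 without cytokines gave 783 genes higher and 528 lower as deposited, and 563 higher and 749 lower after median centring. The interaction gave 300 higher and 637 lower as deposited, and 425 higher and 487 lower after quantile normalization. Mesenchymal markers moved with PM10 in inflamed hIECs. Of 10, 6 were called lower and 1 higher, where 9.02% and 6.22% of all genes tested were. Their summed level was 4428 and 4475 FPKM without PM10 and 3783 and 3750 FPKM with it. Their part in the lower HLA-DRA and HLA-DRB1 was not tested.

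Cells that carry class II constitutively left little trace. Of 17 markers of antigen-presenting and other blood cells, 12 were listed at 0 in all 8 libraries, among them MS4A1, CD14, CSF1R, ITGAX and SPI1. The summed level of the list was 2.07 to 5.15 FPKM without cytokines and 3.99 to 4.99 FPKM with them, while CD74 alone went from 3.78 to 6.52 up to 156 to 163 FPKM. Only 3 of the markers reached 1 FPKM in any library. AIF1, a macrophage protein, fell from 2.84 and 2.74 FPKM in normal hIECs to 0 and 0.463 FPKM in inflamed ones. FCER1G, an Fc receptor chain, rose from 1.02 and 1.17 to 3.59 and 3.67 FPKM. CD68, a lysosomal protein, was highest in inflamed hIECs with PM10, at 1.11 and 1.83 FPKM. Of 8 endothelial markers, 5 were at 0 in every library, PECAM1, CDH5 and VWF among them. Their summed level, most of it EGFL7, fell from between 33.5 and 35.8 FPKM without cytokines to between 14.4 and 15.7 FPKM with them. The summed intestinal epithelial markers, nearly all of it KRT8 and KRT18, went from between 614 and 667 to between 299 and 361 FPKM. The part of these marker changes in the class II levels was not tested.

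Upstream of CIITA, genes of the interferon pathway changed in the same libraries. Of 10 genes from the IFNγ receptor to the CIITA promoter, 6 were called higher in inflamed than in normal hIECs, where 25.9% of all genes tested were. IFNGR2, a receptor chain, was called lower (-0.26 ± 0.07, adjusted p = 0.0194), and IFNGR1, JAK1 and USF1 were not called. IRF1, a transcription factor that acts on the IFNγ-responsive CIITA promoter, stood at 4.21 and 3.09 FPKM in normal and at 81.2 and 81.3 FPKM in inflamed hIECs, a log2 difference of 4.15 ± 0.11 (adjusted p = 1.66e-07). SOCS1, a feedback inhibitor of JAK kinases, had 1.46 ± 0.09, and PRDM1, a repressor of CIITA, was listed at 0 in the 4 libraries without cytokines and at 1.68 to 2.13 FPKM in the 4 with them, through which alone it passed the minimum. With PM10 alone IRF1 was called higher (0.44 ± 0.11, adjusted p = 0.0488), and with cytokines present PM10 gave no call among the 10.

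Of the 7 genes of the RFX, CREB and NF-Y complexes, which CIITA joins, 1 rose with cytokines, where 25.9% of all genes tested did, and 3 fell, where 30.3% did. With PM10 in both groups 1 was called higher and 4 lower, where 25.8% and 39.6% of all genes tested were. RFX5 had a log2 difference of 0.31 ± 0.07 (adjusted p = 0.00594), and RFXANK (-0.29 ± 0.06), NFYC (-0.38 ± 0.06) and NFYB (-0.47 ± 0.11) were lower. None of the 7 was called in either PM10 comparison, and their smallest level was 2.37 FPKM, of RFXAP. Of 8 chromatin cofactors of CIITA, CARM1 (-0.22 ± 0.05) and HDAC1 (-0.16 ± 0.06) fell with cytokines without PM10 and none rose, beside the same 30.3% and 25.9%, and the acetyltransferase gene EP300 rose with PM10 in normal hIECs (0.23 ± 0.06, adjusted p = 0.0493).

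Downstream, the processing genes were induced in part. Of 12 genes of class II processing and turnover, 9 were tested and 6 were called higher with cytokines, where 25.9% of all genes tested were, and none lower. CTSS and IFI30 passed the minimum only through the libraries with cytokines. CTSS, the protease that cuts the invariant chain down to its last fragment, was listed at 0 in the 4 libraries without cytokines and stood at 12.3 and 12.6 FPKM in inflamed hIECs and at 16.3 and 15.95 FPKM in inflamed hIECs with PM10. It rose with PM10 in inflamed hIECs (0.35 ± 0.07, adjusted p = 0.0156). CTSL, a related protease, had 0.64 ± 0.06 and SPPL2A, which cleaves the membrane stub of CD74, had 0.77 ± 0.09. CD83, which slows the degradation of class II, had 1.58 ± 0.09. CTSD, another endosomal protease, rose by a log2 difference of 0.27 ± 0.05 with PM10 in both normal and inflamed hIECs, and CTSL rose with PM10 in normal hIECs (0.32 ± 0.06) with an interaction of -0.38 ± 0.08 (adjusted p = 0.0422).

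IFI30, the thiol reductase that unfolds antigens in the endosome, stood at 0.392 and 0 FPKM in normal hIECs and at 28.6 and 27.6 FPKM in inflamed hIECs. In inflamed hIECs with PM10 it stood at 8.47 and 27.3 FPKM, and the first library was apart. A readthrough gene that covers its exons stood at 8.83 FPKM in that library and at 1.73 to 7.08 FPKM in the other 7. The log2 difference for cytokines with PM10 was 3.05 ± 0.43 (adjusted p = 5.93e-04), and 3.84 ± 0.18 (adjusted p = 2.09e-05) without that library.

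Of 8 ligands and costimulatory genes that meet the T cell beside class II, all 5 tested rose with cytokines, where 25.9% of all genes tested did, and 3 of these rose further with PM10 in inflamed hIECs, where 6.22% did. PDCD1LG2 passed the minimum only through the libraries with cytokines. ICAM1, the adhesion ligand of LFA-1, rose by a log2 difference of 4.66 ± 0.06 with cytokines and by 0.47 ± 0.06 with PM10 on top. It was also called higher with PM10 in normal hIECs (0.67 ± 0.06, adjusted p = 0.00227), and its interaction was not called (adjusted p = 0.205). CD274, which encodes PD-L1, had 1.92 ± 0.07 and 0.43 ± 0.07, and PDCD1LG2, which encodes PD-L2, had 2.42 ± 0.08 and 0.64 ± 0.08. Neither CD274 nor PDCD1LG2 was called with PM10 in normal hIECs. Their interactions were called, at 0.45 ± 0.10 (limma, adjusted p = 0.0374) and 0.78 ± 0.11 (adjusted p = 0.0110), where 6.6% of all genes tested were. In these 3 genes the PM10 difference was positive in the same libraries in which that of HLA-DRA was negative. CD40 had 1.46 ± 0.06 with cytokines and was not called with PM10. CD80 was listed at 0 in all 8 libraries and CD86 at 0 in all but the normal ones (0.284 and 0.263 FPKM).

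MHC class I and its own coactivator NLRC5 rose throughout. All 8 of these genes were called higher with cytokines without PM10, where 25.9% of all genes tested were, though NLRC5 and HLA-G passed the minimum only through the libraries with cytokines. NLRC5, the class I counterpart of CIITA, stood at 0.195 and 0 FPKM in normal and at 14.1 and 15.4 FPKM in inflamed hIECs. HLA-B rose by a log2 difference of 3.71 ± 0.04, from 132 and 129 to 1727 and 1716 FPKM. B2M, the class I light chain, rose by 3.18 ± 0.06. It was the 1 gene of the 8 called lower with PM10 in inflamed hIECs (-0.26 ± 0.06, adjusted p = 0.0257), where 9.02% of all genes tested were. HLA-E was the 1 called with PM10 in normal hIECs (0.20 ± 0.04, adjusted p = 0.0340), where 5.51% of all genes tested were called higher.

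**Figure D4:**
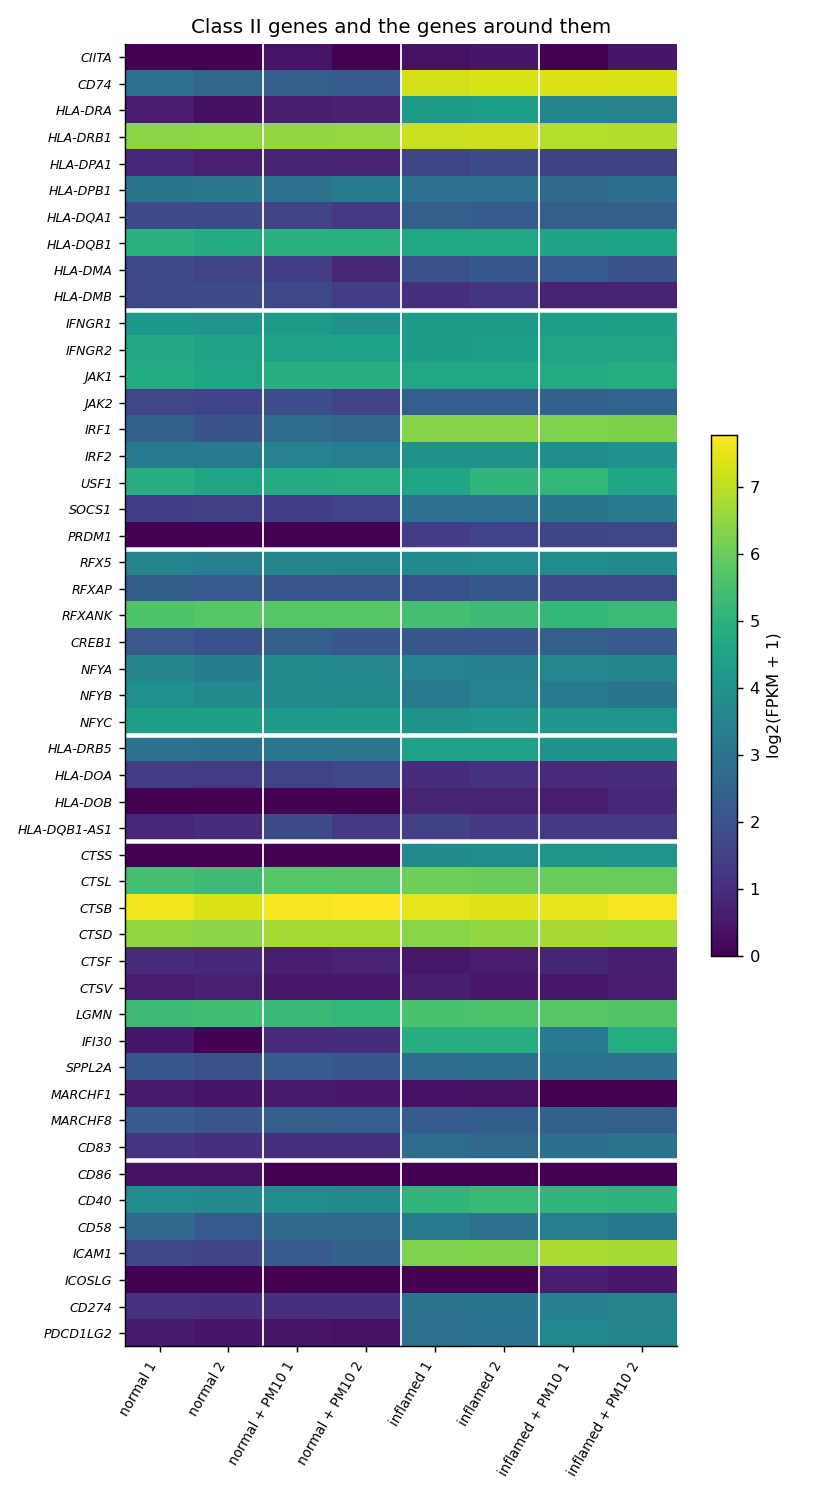
Levels as log2(FPKM + 1) in each library for the 10 class II genes (top block), and below them for the IFNγ pathway, the complexes that CIITA joins, other class II loci, class II processing genes and T cell ligands; genes at 0 in all 8 libraries and some genes not reported here are left out. IRF1, CTSS, ICAM1, CD74 and HLA-DRA change between the libraries with and without cytokines in the IFNγ, processing, ligand and class II blocks.

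The class II region of chromosome 6 held these genes among others that responded differently. From the start of HLA-DRA to the end of HLA-DPB1, over 649.8 kb, 17 genes were tested, 11 of them class II loci, counting the antisense gene HLA-DQB1-AS1. Of the 6 other genes, 5 rose with cytokines without PM10, where 25.9% of all genes tested were called higher. PSMB8-AS1, among these 5, passed the minimum only through the libraries with cytokines. TAP1 and TAP2, which encode the peptide transporter for class I, had log2 differences of 4.63 ± 0.09 and 2.68 ± 0.06, and PSMB9 and PSMB8, which encode immunoproteasome subunits, had 4.46 ± 0.11 and 2.34 ± 0.08. BRD2 had a difference that did not pass without PM10, and rose with PM10 in normal hIECs (0.26 ± 0.06), as did TAP2 (0.29 ± 0.06). HLA-DOA, which encodes a chain of the HLA-DM inhibitor HLA-DO, fell with cytokines by 0.35 (SE 0.09, adjusted p = 0.0113). HLA-DOB, its partner, was listed at 0 in the 4 libraries without cytokines and at 0.537 to 0.827 FPKM in the 4 with them, under the minimum for the fit. HLA-DQB1-AS1 rose by a log2 difference of 0.49 ± 0.16 (adjusted p = 0.0353).

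**Figure D5:**
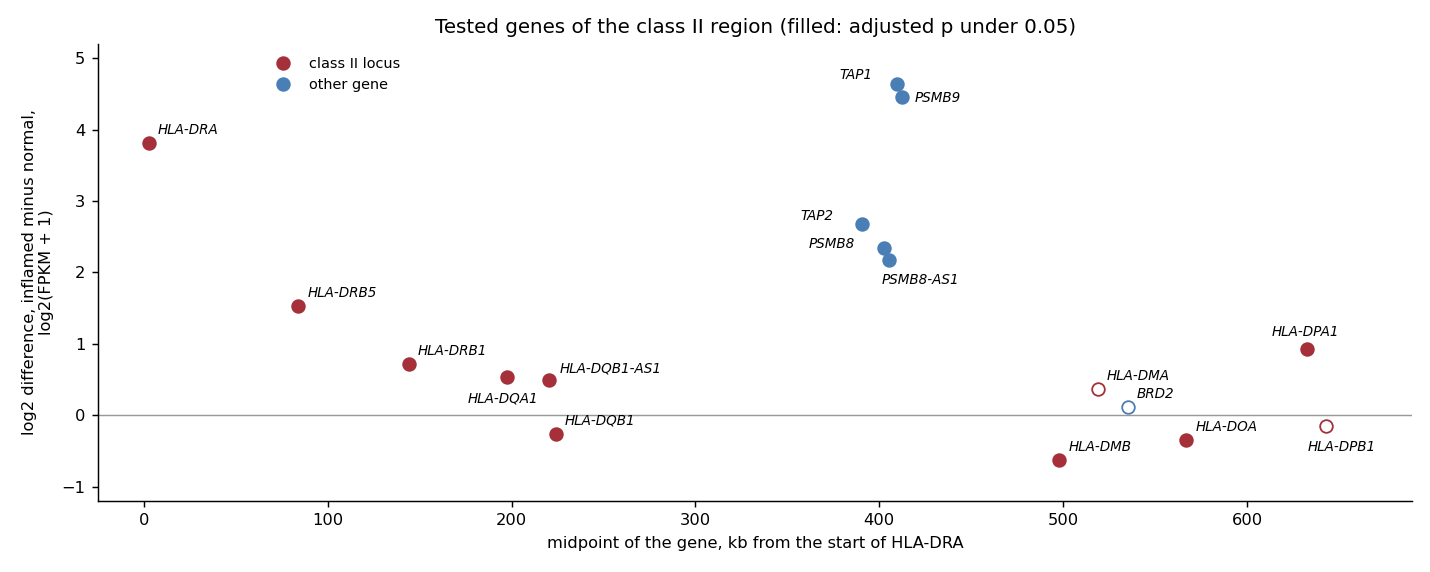
Log2 difference of inflamed against normal hIECs for the 17 tested genes between HLA-DRA and HLA-DPB1, by the distance of each gene's midpoint from the start of HLA-DRA; filled points have an adjusted p under 0.05. On this log2(FPKM + 1) scale, which understates the change of HLA-DRA, TAP1 (4.63), PSMB9 (4.46) and HLA-DRA (3.82) stand above the other class II loci (-0.63 to 1.53).

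The genes most alike to HLA-DRA by Pearson's r of log2(FPKM + 1) over the 8 libraries were ISG15 (r = 0.998), BDKRB2 (0.998), PSMB8-AS1 (0.996), GYPC (0.996) and HLA-DRB5 (0.996). BDKRB2 and PSMB8-AS1 passed the minimum only through the libraries with cytokines. All 5 genes were higher in the libraries with cytokines and, among these, lower in the 2 with PM10, a pattern that followed from their choice by likeness to HLA-DRA. ISG15, for example, stood at 70.5 to 74.2 FPKM without cytokines, at 188 and 195 FPKM in inflamed hIECs and at 171 and 158 FPKM in inflamed hIECs with PM10. For CIITA the highest values were those of RNF138 (0.968), AC126474.2 (0.951), PPIAP31 (0.930), INPP5B (0.923) and LINC01807 (0.917), a likeness to a gene that is at 0 in 4 of the 8 libraries. The points of each r share libraries and fall into groups with and without cytokines, so these values are descriptions.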

How the data were processed

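RNA-seq of 8 libraries of 2D hIECs was used, 2 in each of 4 groups. Per the labels, the TruSeq libraries were poly-A selected and keep no strand. Per the methods, the authors clipped adapters (Cutadapt 3.7), trimmed low-quality ends (Sickle 1.33), mapped 2 × 100-base reads on GRCh38 (HISAT2 2.2.1) and quantified genes (StringTie 2.2.0). The annotation release is not given in the sources used here. The deposited values are FPKM per gene and library, so read counts and exact depth are unknown, and a 0 can be a gene below the limit of the estimate. GENCODE release 44, which holds the identifiers of 99.5% of the 60558 genes, supplied positions and overlaps. The genes and gene lists were chosen with earlier results of these data known.

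Differences were taken on log2(FPKM + 1), which is the log2 scale of the text and understates the changes of genes at a few FPKM or less. The limma model (limma 3.58.1, R 4.3.3, variance trend) held all 8 libraries, and a gene entered it when 2 or more libraries reached 1 FPKM, which 14206 did. Benjamini-Hochberg adjustment was made separately for each of 5 comparisons at a threshold of 0.05, and comparisons that share a group are not independent. The text names all 10 genes, up to 4 genes of each other list with the largest called cytokine difference, up to 3 called with PM10 or in the interaction, blood-cell markers at 1 FPKM or more, and the 5 genes most alike to CIITA and to HLA-DRA. Others (the overlapping genes, further markers, CTSL with cytokines, HLA-DOB, CD80 and CD86) were named after their values were seen. Some genes of the lists are not reported here. The fit was tested on simulated data. Alternatives covered the pseudocount, low-value filters, scaling, gene types, the trend, the groups fitted, the replicate number and each library left out. Same-numbered libraries did not deviate together (r = -0.00151 to 0.0793 over 6 pairs), so numbers were not taken as pairs. Tables and plots used Python 3.11.15, pandas 2.3.3 and matplotlib 3.10.9.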

Additional observations from a re-analysis of the deposited data

Results flagged for a closer look

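The PM10 difference of HLA-DRA differed between inflamed and normal hIECs with an interaction term in limma of -0.99 (log2, adjusted p = 0.0111), with a difference of 0.22 in normal and -0.77 in inflamed hIECs. That of HLA-DRB1 differed by -0.33 (adjusted p = 0.0260), with 0.08 in normal and -0.26 in inflamed hIECs. The normal level of HLA-DRA, 0.256 to 0.525 FPKM, lay close to the lowest value above 0 of a library (0.164 to 0.228 FPKM), and its interaction lay between -1.41 and -0.85 over the 16 alternative fits, 12 of which called it. The interaction of HLA-DRB1 lay between -0.36 and -0.29 and was called in 8 of 16.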

How the results depend on the processing

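Of 736 alternative values of a single gene in a single comparison, 678 kept the direction and the side of the threshold, 34 lost a call, 13 gained one and 11 turned sign. All calls for CD74, HLA-DRA, HLA-DRB1, HLA-DPA1, HLA-DQA1 and HLA-DMB in both cytokine comparisons, and for HLA-DMA and HLA-DQB1 in that with PM10, held in every alternative that tested the gene. With at least 5 FPKM required, 3 genes were higher in either cytokine comparison and 1 was lower without PM10, since fewer of them were tested. Fitting only the groups compared left 1 gene lower with cytokines without PM10 and 0 lower with PM10 in normal hIECs, and the latter count was also 0 with the wider filter and without the variance trend. In the interaction, 1 gene was lower with a pseudocount of 0.1, under median centring or without the trend, and 1 was higher under median centring or quantile normalization. The causes were not tested.

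Leaving out 1 library at a time gave 1 to 2 genes lower with cytokines without PM10, 0 to 2 higher and 0 to 1 lower with PM10 in normal hIECs, 1 to 3 lower with PM10 in inflamed hIECs, and 0 to 1 higher and 0 to 3 lower in the interaction. Without the first normal library, HLA-DRA (adjusted p = 0.0335) and HLA-DQB1 (adjusted p = 0.0431) were called higher with PM10 in normal hIECs. Signs turned only in PM10 comparisons in which the gene was not called. In normal hIECs HLA-DPA1 had 0.0106 and HLA-DPB1 -0.0659 under quantile normalization, and HLA-DPB1 had -0.0520 under median centring. With libraries left out, these differences ranged from -0.107 to 0.0764 for HLA-DPA1, from -0.129 to 0.134 for HLA-DPB1 and from -0.0132 to 0.187 for HLA-DQB1. In inflamed hIECs they ranged from -0.0174 to 0.0975 for HLA-DQA1 and from -0.114 to 0.184 for HLA-DMA. The replicate number as a block (replicate block) changed no call of the 9 genes, with CD74 at 4.56 for cytokines without PM10. With 2 libraries a group, and HLA-DRA, HLA-DPA1 and CIITA under 1 FPKM without cytokines, small changes of these genes could not be detected.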
